A study of Mus musculus with 6 samples.

Results

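The carboxylesterases of the Ces1, Ces2 and Ces3 subfamilies were followed in isolated crypts of mouse intestine with and without Arid1a. The set was Ces1d, Ces1e, Ces1f, Ces1g, Ces2a, Ces2b, Ces2c, Ces2e, Ces3a and Ces3b, found by matching the accession of each array probe to a gene symbol. It comprised 10 of the 23462 named genes on the array, each measured by 1 of the 56605 probes. All 10 lie on chromosome 8 in the gene table. Of the 10, 9 entered the fit of 13492 genes, which took probes that the scanner software called well above background on 3 or more arrays, and Ces3b did not. The set was proposed with knockout and control values of these arrays in view, so the differences between the groups are a description of its members and no test of them is drawn. The 3 control samples (titles A1 to A3) came from Arid1a f/f mice, in which both copies of Arid1a carry flanking recombination sites. The 3 knockout samples (titles VA1 to VA3) came from Villin-Cre; Arid1a f/f mice, in which Cre driven by the epithelial Villin promoter deletes the gene. All mice were of mixed strain, and their age and the part of the intestine are not given in the labels. Nothing states that the samples of a group were separate animals. For knockout 2 and control 3, source name and genotype contradict title and description, and groups here follow title and description.

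Carboxylesterases are serine hydrolases of the endoplasmic reticulum that cleave ester and amide bonds in lipids, drugs and environmental chemicals. Enzymes of the Ces1 group prefer esters with a bulky acyl part and those of the Ces2 group esters with a bulky alcohol part, and several members of both groups hydrolyse triglycerides or diglycerides. In the gut they are mainly enzymes of the absorptive epithelium, where they meet swallowed drugs first and take part in turning over stored fat. In the mouse the genes have multiplied into tandem arrays, so neighbouring members resemble each other in sequence.

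A level is the log2 of a probe's processed signal minus that of the 75th percentile of its array. Differences are taken between arrays for 1 probe. The brightness of a probe against others serves only to choose a probe per gene and a reference member per subfamily, and marker lists are summed within an array. Controls 1 and 2 and knockouts 1 and 2 lay on slide 1, and control 3 and knockout 3 on slide 2, scanned on another day. The deleted gene, Arid1a, had levels of 3.71, 3.47 and 4.01 in controls 1 to 3 and of 2.20, 2.07 and 2.51 in knockouts 1 to 3, so the 2 arrays whose labels disagree each fell on the side that the title gives. Epithelium was met by its markers, since 5 of 5 epithelial and 18 of 18 enterocyte markers were well above background on all 6 arrays. These 2 lists do not tell crypts from other intestinal epithelium. So were 5 of 6 crypt base stem cell markers, but also 7 of 8 T cell, 5 of 8 macrophage and 2 of 8 adipocyte markers, well above background on all 6 arrays. Of 7 fibroblast markers, 6 were not well above background on any array, and neither were 5 of 8 adipocyte markers, among them Adipoq and Plin1. Xist, the transcript of the inactive X chromosome, was well above background on 2 control arrays and 1 knockout array, so sex was uneven between the groups. Near-identical relatives may share a probe's target. The probes' sequences were not used here, so a signal cannot be assigned beyond the gene named by the accession.

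Of the 4 Ces1 genes, Ces1d and Ces1g were well above background in the controls but in none of the knockouts. Ces1d, the triacylglycerol hydrolase known for mobilising stored fat in liver, had levels of 1.12, 0.33 and 0.89 in controls 1 to 3 and of -5.87, -5.45 and -5.43 in knockouts 1 to 3. In scanner units, before any scaling between arrays, its signal was 640, 350.0 and 537 on the control arrays and 4.97, 4.71 and 4.76 on the knockout arrays. All 3 control arrays were well above background and none of the 3 knockout arrays was, so the groups were far apart and only a lower bound of the difference can be given. The control mean was at least 26.3-fold above the knockout group, a bound set per array by the higher of the dimmest signal called well above background and the probe's own signal. Bounds of this kind hold for the background subtraction of the scanner software. With another, the normexp background correction with its offset of 50, the log2 difference of Ces1d was -2.80, which is below the bound.

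Ces1g, a lipid hydrolase of liver and intestine, followed the same pattern on its own probe. Its levels were 0.34, -0.32 and 0.34 in controls 1 to 3 and -5.82, -5.44 and -6.62 in knockouts 1 to 3. Again no knockout array was well above background, and the control mean was at least 16.7-fold higher. Ces1d and Ces1g entered the fit through the control arrays alone, so they had to differ once they were in it. The knockout levels of both genes are background readings and their order among the 3 arrays has no meaning.

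The other 2 Ces1 genes stayed well above background on every array. Ces1e, or egasyn, which holds beta-glucuronidase in the endoplasmic reticulum, had levels of 2.05, 1.90 and 1.71 in controls 1 to 3 and 0.59, 1.01 and 1.10 in knockouts 1 to 3. The groups did not overlap, and the log2 difference, knockout minus control, was -0.99 ± 0.20 (SE, n = 3 per group), or 1.99-fold. Ces1f, a second triglyceride hydrolase of the group, had levels of 5.28, 5.19 and 5.64 on the control arrays and 2.88, 4.68 and 4.29 on the knockout arrays. Its groups did not overlap either, but the knockout arrays spread widely, with an SD of 0.95 against 0.24 in the controls. The log2 difference of Ces1f was -1.42 ± 0.45, and without knockout 1, its lowest array, it was -0.88.

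**Figure D1:**
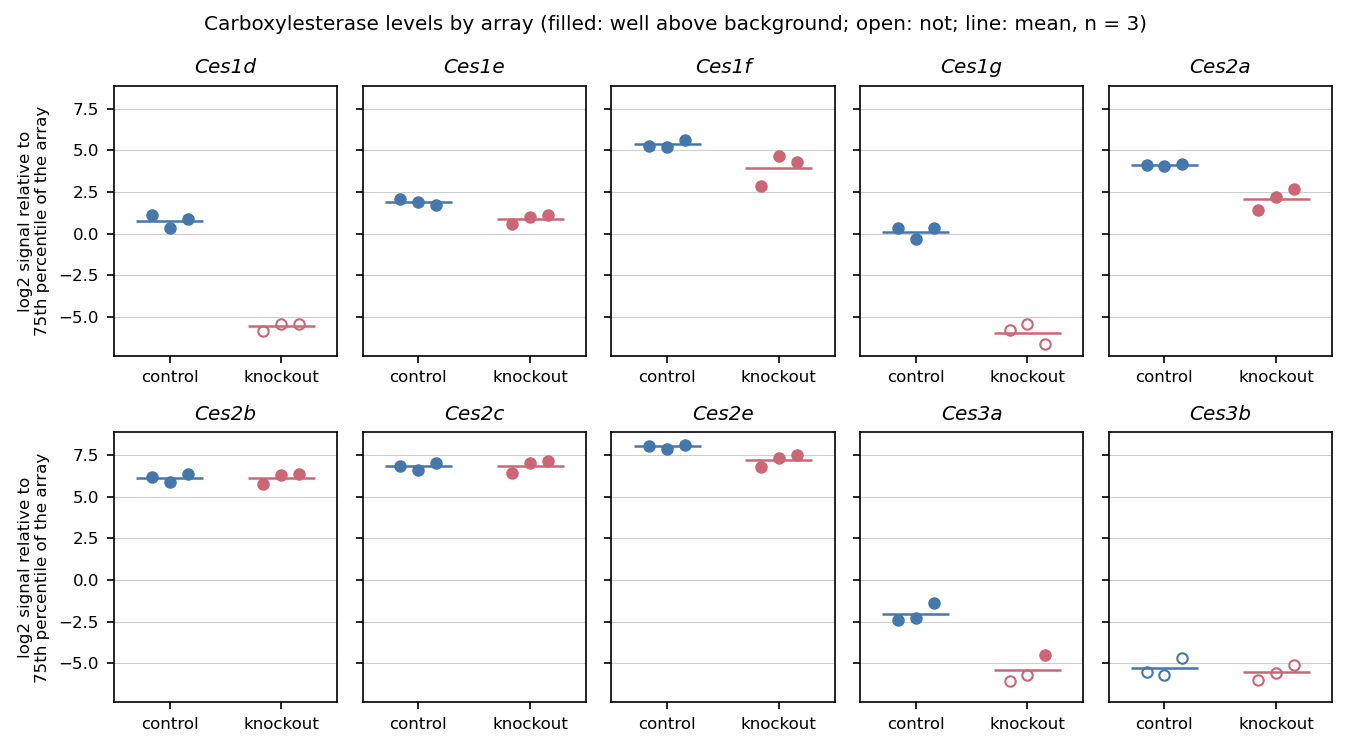
Level of each carboxylesterase (log2 signal minus that of the 75th percentile of its array, vertical axis) on the 3 control and 3 knockout arrays, with filled points for arrays well above background, open points for the others and a line at the group mean. Ces1d and Ces1g are open on all 3 knockout arrays, Ces2b and Ces2c overlap between the groups, and Ces3b is open on all 6 arrays; heights are not comparable between genes.

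The Ces2 genes did not move as 1 block. Ces2a, a hydrolase of acylglycerols, was lower on every knockout array, with levels of 4.10, 4.07 and 4.17 in controls 1 to 3 and 1.43, 2.18 and 2.69 in knockouts 1 to 3. The SD was 0.05 among its control arrays and 0.63 among its knockout arrays. The log2 difference was -2.02 ± 0.31, or 4.04-fold. Ces2e, another member active in the gut, had levels of 8.07, 7.90 and 8.13 on the control arrays and 6.79, 7.34 and 7.54 on the knockout arrays. These groups were separate too, at a smaller distance, with a log2 difference of -0.81 ± 0.23, or 1.76-fold.

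Ces2b and Ces2c, which lie between Ces2a and Ces2e on the chromosome, overlapped between the groups. Ces2c, an intestinal hydrolase of drugs and acylglycerols, had levels of 6.85, 6.61 and 7.02 in controls 1 to 3 and 6.43, 7.02 and 7.13 in knockouts 1 to 3. Its log2 difference was 0.03, with a 95% interval from -0.53 to 0.59. Ces2b had levels of 6.19, 5.90 and 6.39 on the control arrays and 5.75, 6.31 and 6.35 on the knockout arrays. Its log2 difference was -0.02, with a 95% interval from -0.57 to 0.52. Neither interval reached a 2-fold change in either direction, and the interval of Ces2a, from -2.76 to -1.27, met neither of them.

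The promoters of 3 Ces2 genes and of Ces1g are shown because the groups were separate for Ces2a and Ces2e but overlapped for Ces2c in the same cluster, and because Ces1g had no knockout array well above background. RefSeq start sites (build GRCm38.p6) were matched for 6 of the 10 genes, Ces1e, Ces1g, Ces2a, Ces2c, Ces2e and Ces3b. Each line gives the 230 bases before the start site, 5′ to 3′ on the strand of the gene. For Ces2a this is chr8:104733773-104734002 on the plus strand, for Ces2c chr8:104846838-104847067 on the plus strand, for Ces2e chr8:104926030-104926259 on the plus strand, and for Ces1g chr8:93337210-93337439 on the minus strand. Capitals mark matches to the motifs named after the sequences.
Ces2a: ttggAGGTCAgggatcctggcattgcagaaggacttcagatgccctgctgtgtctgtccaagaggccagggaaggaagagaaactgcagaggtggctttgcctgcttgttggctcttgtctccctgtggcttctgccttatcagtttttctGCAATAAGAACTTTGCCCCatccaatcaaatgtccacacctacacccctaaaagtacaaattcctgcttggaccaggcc
Ces2c: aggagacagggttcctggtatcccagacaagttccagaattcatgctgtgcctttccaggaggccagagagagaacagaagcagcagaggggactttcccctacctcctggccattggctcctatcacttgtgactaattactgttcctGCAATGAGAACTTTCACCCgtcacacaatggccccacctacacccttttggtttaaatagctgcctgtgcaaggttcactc
Ces2e: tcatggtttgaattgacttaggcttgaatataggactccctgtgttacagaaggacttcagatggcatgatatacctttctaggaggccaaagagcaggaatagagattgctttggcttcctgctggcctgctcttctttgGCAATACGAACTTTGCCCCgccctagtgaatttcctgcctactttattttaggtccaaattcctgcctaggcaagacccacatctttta
Ces1g: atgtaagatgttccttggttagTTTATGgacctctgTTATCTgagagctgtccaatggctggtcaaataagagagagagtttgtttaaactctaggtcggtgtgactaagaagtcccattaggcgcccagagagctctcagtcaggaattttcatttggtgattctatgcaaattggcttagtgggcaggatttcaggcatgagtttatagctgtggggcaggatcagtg

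All 3 Ces2 promoters carried the pattern GCAATNNGAACTTTNNCCC, which begins 79 bases before the start site in Ces2a, 81 in Ces2c and 89 in Ces2e. It was derived from these 3 sequences as their longest gapless likeness, so that it fits them by construction, and no other of the 32851 RefSeq promoters of 300 bases holds it on either strand (3 in all, 0.00913%). Its core GAACTTT occurs in 3.82% of all promoters. The pattern was thus present both at Ces2a and Ces2e, which were lower in the knockout group, and at Ces2c, which overlapped. The nuclear receptor hexamer AGGTCA was found in Ces2a alone of the 6 genes, 226 bases before its start site, and in 16.3% of all promoters. In Ces1g the GATA motif AGATAA was found on the opposite strand, 194 bases before the start site, and the CDX motif TTTATG 208 bases before it. Another match to AGATAA in Ces1g begins at the third base of the transcript. AGATAA occurs in 11.2% of all promoters and in 3 of the 6 matched here, TTTATG in 11.9% and in 2 of the 6. The HNF4 motif CAAAGTCCA (0.475% of all promoters) was found in 0 of the 6. These matches are of letters in a fixed window on both strands, with overlaps between motifs allowed.

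Of the Ces3 genes, known as lipid hydrolases of the liver, Ces3a was dim and Ces3b was not detected. Ces3a had levels of -2.39, -2.28 and -1.38 in controls 1 to 3 and -6.06, -5.68 and -4.49 in knockouts 1 to 3. It was well above background on 3 of 3 control arrays and on 1 of 3 knockout arrays, knockout 3. The log2 difference was -3.40 ± 0.46, which includes background readings on knockouts 1 and 2. Ces3b was not well above background on any of the 6 arrays, with levels between -5.98 and -4.68, and no fold is given for it. Of 10 hepatocyte markers, 4, among them Ahsg, Fga and Fgb, were not well above background on any array. The summed level of the 5 tested hepatocyte markers was 0.76 to 1.03 on control arrays and 0.45 to 0.70 on knockout arrays, and its part in the Ces3a values was not tested.

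Across the set, 8 of the 9 tested genes had a negative difference. In the fit of all genes 5 of the 9 passed an adjusted p of 0.05 in limma as lower, namely Ces1d, Ces1e, Ces1g, Ces2a and Ces3a, where 7.63% of all tested genes did, and 0 passed as higher, where 7.28% did. For 7 of the 9 all knockout arrays lay below all control arrays, as they did for 20.7% of all tested genes, and for 0 of the 9 did they lie above, as for 19% of all. At least 2-fold lower were 5 of the 9 and 8.26% of all tested genes. The median difference was -1.42 over the 9 genes and -0.01 over all tested genes. These counts rest on the contrast that was in view when the set was proposed, with Ces1d and Ces1g entering the fit through the control arrays alone, so nothing is read from them. The number passed was 4 without control 1, 2 or 3 or without knockout 2, each time without Ces1e, and 4 with sex as a block. In these settings 4.73%, 5.85%, 6.11%, 6.88% and 9.92% of all tested genes passed, against 14.9% in the fit of all 6 arrays. It was 7 members without knockout 1, with Ces1f and Ces2e added, where 29.9% of all tested genes passed. Without knockout 3 or with slide as a block 6 passed, in both cases with Ces2e added, beside 10.7% and 18.6% of all tested genes. The member counts thus moved with the count of all genes. Without both arrays of contradicting labels 2 genes passed, Ces1d and Ces1g, and 6 had an unadjusted p under 0.05. Over all 13492 tested genes 2.37% passed in that setting, and 2617 had an unadjusted p under 0.05. The log2 differences on the 4 arrays that remain were -1.13 for Ces1e, -1.65 for Ces1f, -2.03 for Ces2a, -0.83 for Ces2e and -2.94 for Ces3a. When each array was scaled to its median 7 passed, all of them lower, in a setting where the median gene lay at -0.26 and 28.8% instead of 48.8% of all called genes were higher.

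The differences were also taken within each slide, where separate groups fix the sign and only the size is informative. Ces1e differed by -1.18 on slide 1 and -0.61 on slide 2, Ces1f by -1.45 and -1.35, and Ces2a by -2.28 and -1.49. For Ces2e the values were -0.92 and -0.59, and for Ces3a -3.54 and -3.11. Ces2b gave -0.01 and -0.04, and Ces2c -0.01 and 0.11. Split by Xist, the difference of Ces1e was -0.80 among arrays with Xist and -1.21 among those without, that of Ces1f -0.73 and -1.69, and that of Ces2a -1.94 and -2.05.

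Along chromosome 8 the genes form 2 clusters in the gene table. The first holds, in order, Ces1a, Ces1b, Ces1c, Ces1d, Ces1e, Ces1f, Ces1g, Ces1h and Ces5a. The second runs from Ces2a through Ces2b, Ces2c, Ces2d-ps, Ces2e, Ces2f, Ces2g, Ces2h, Ces3a and Ces3b to Ces4a. No other protein-coding gene lies inside either (0 in each). In the first cluster Ces1d and Ces1g stood on either side of Ces1e and Ces1f, whose differences were smaller. With the background subtraction of the scanner software, Ces1d and Ces1g were lower by at least 26.3-fold and 16.7-fold.

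Of the carboxylesterases outside the set, Ces1c and Ces2g were lower in the knockout group and Ces2f overlapped. Of 10 such genes listed, 8 had a probe, 4 of these (Ces1a, Ces2h, Ces4a and Ces5a) were not well above background on any array, and 4 were tested, of which 3 passed as lower, where 7.63% of all tested genes did, and 0 as higher. One of the 3, Ces1b, entered the fit through the control arrays alone and had to differ, so its call adds nothing. Ces1c, which encodes a secreted plasma esterase, had levels of -1.08, -1.38 and -1.67 in controls 1 to 3 and -3.48, -3.88 and -2.66 in knockouts 1 to 3, with 2 of 3 knockout arrays well above background. Its groups were separate, with a log2 difference of -1.97 ± 0.33 (limma adjusted p = 0.0140). Ces2g had levels of 1.47, 1.62 and 2.35 on the control arrays and -0.12, 0.31 and 0.92 on the knockout arrays, a log2 difference of -1.44 ± 0.34 (limma adjusted p = 0.0373). Ces1b was not well above background in 3 of 3 knockouts, and its control mean was at least 1.68-fold higher. Ces2f overlapped, at -0.65 ± 0.45 (limma adjusted p = 0.334).

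The genes on either side of the clusters did not pass the test. Of the 12 nearest protein-coding neighbours, 3 on each side of each cluster, 8 were tested. In limma 0 of the 8 passed, where 14.9% of all tested genes did, so among so few genes nothing is read from this count. Their differences lay between -0.58 and 1.12. Next to the first cluster, Lpcat2, an enzyme of phospholipid remodelling, differed by 0.13 ± 0.40. Next to the second, Ciao2b, of iron-sulphur protein assembly, differed by 0.32 ± 0.15 and Cbfb, the partner of the Runx factors, by -0.58 ± 0.27 (limma adjusted p = 0.183). The highest value was that of B3gnt9, a glycosyltransferase, at 1.12 ± 0.42 (limma adjusted p = 0.115). At an unadjusted p under 0.05 D230025D16Rik was lower and B3gnt9 higher, beside 4618 of all 13492 tested genes in either direction. By overlap of the groups, D230025D16Rik was separate as lower and Ciao2b and B3gnt9 as higher. The other tested neighbours overlapped. Of all tested genes 20.7% were separate as lower and 19% as higher. Capns2, Slc6a2, Gnao1 and Rrad were not tested.

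**Figure D2:**
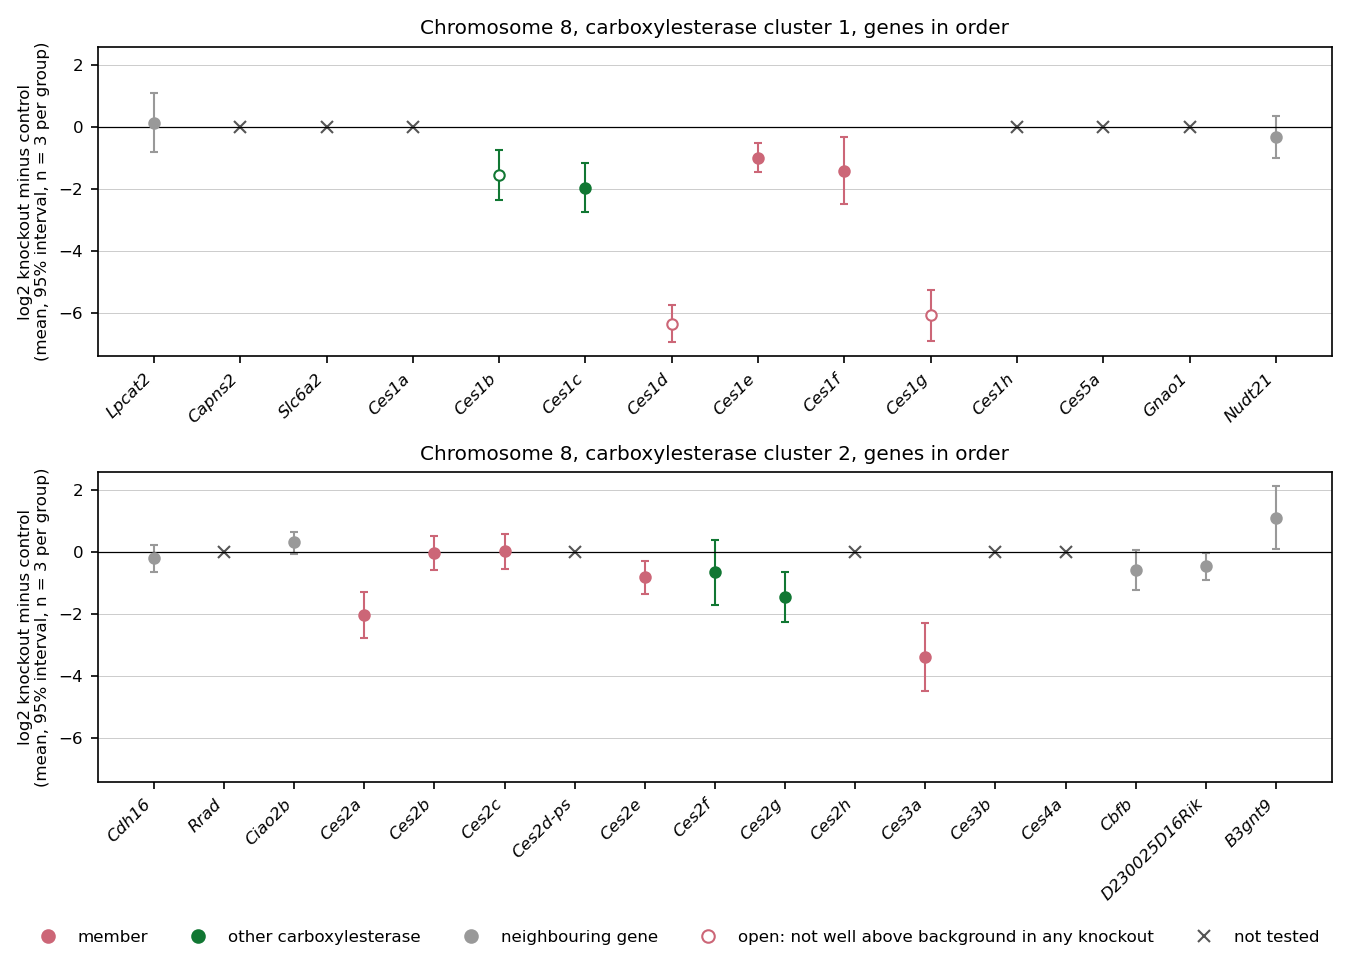
Log2 difference, knockout minus control, with its 95% interval (3 arrays per group) for the carboxylesterases of both chromosome 8 clusters in gene order and for up to 3 protein-coding neighbours on each side. Open circles mark genes not well above background in 3 of 3 knockouts, whose plotted value rests on background readings, and crosses mark genes that were not tested; the tested neighbours lie between -0.58 and 1.12.

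The knockout arrays differed among themselves in a similar way for most members. Of the 6 members well above background on all 3 knockout arrays (Ces1e, Ces1f, Ces2a, Ces2b, Ces2c and Ces2e), 6 had their lowest knockout level on knockout 1. The share of all tested genes lowest on that array was not taken, so this order is not read as particular to the members. Ces1d, Ces1g and Ces3a are left out of this count, since some or all of their knockout levels are background readings. As deviations from the control mean, Ces2a lay at -2.69, -1.93 and -1.43 on knockouts 1 to 3, Ces2e at -1.25, -0.70 and -0.50, and Ces1e at -1.30, -0.88 and -0.79. Ces2b and Ces2c, whose group means were close, were also lower on knockout 1, at -0.41 and -0.40, than on knockouts 2 and 3, where they lay between 0.15 and 0.30. The 18 enterocyte markers had mean deviations of -0.93, -0.52 and 0.20 in knockouts 1 to 3, against -0.16 to 0.26 on the control arrays. The summed level of that list was 11.36 to 11.75 in controls and 11.01 to 11.91 in knockouts. Epithelial markers deviated by 0.05, 0.33 and 0.65 on knockouts 1 to 3, and crypt base stem cell markers by -1.06, -1.92 and -2.73. In bulk crypts fewer cells of a type and less RNA per cell cannot be told apart, and the part of cell composition in these values was not tested.

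**Figure D3:**
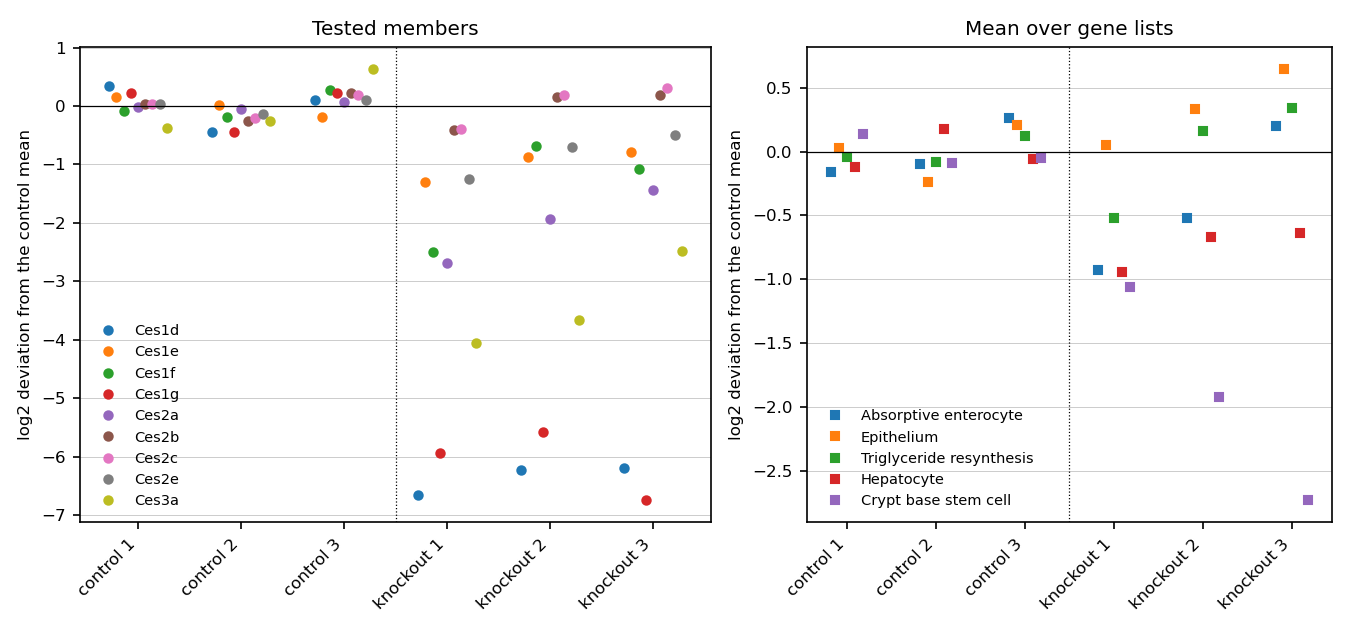
Deviation from the control mean (log2) on each array for the 9 tested members (left) and, as a mean over genes, for 5 gene lists (right), with control and knockout arrays separated by a dotted line. Knockout 1 holds the lowest value of the 6 members well above background on all knockout arrays and of the enterocyte list (-0.93). Values of Ces1d and Ces1g on all knockout arrays and of Ces3a on knockouts 1 and 2 are background readings.

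Enterocyte markers themselves went in different directions. Of 18, 3 fell and 1 rose, where 7.63% of all tested genes fell and 7.28% rose, and the median was 0.13. Slc2a5, the fructose transporter, rose by 2.10 ± 0.29 (limma adjusted p = 0.00674), while Mep1a, a brush border protease subunit, fell by 2.26 on the log2 scale (limma adjusted p = 0.0236). Lct, the brush border lactase, fell by 5.10 on the log2 scale (limma adjusted p = 0.0220), from 7.99, 8.24 and 8.36 in the controls to 2.26, 1.38 and 5.64 in the knockouts, which spread widely. The median of all tested genes was -0.01.

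Among other enzymes that cleave esters and lipids, Nceh1 and Bche were lower. Of 23 listed esterases, lipases and phase I hydrolases, 17 were tested, 2 fell and 0 rose, where 7.63% of all tested genes fell, with a median of -0.10. Nceh1, a hydrolase of neutral cholesterol esters and a close relative of arylacetamide deacetylase, fell by 2.09 on the log2 scale, from 1.89, 1.60 and 1.74 on the control arrays to -0.19, 0.27 and -1.12 on the knockout arrays (limma adjusted p = 0.0131). Bche, butyrylcholinesterase, a serine esterase of the same fold as the carboxylesterases, fell by 1.21, from 4.92, 4.69 and 4.31 to 3.35, 3.66 and 3.29 (limma adjusted p = 0.0153). Both genes had separate groups. Abhd5, the activator of adipose triglyceride lipase, did not pass, at 0.82 ± 0.22 (limma adjusted p = 0.0527).

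Genes that rebuild triglycerides from absorbed fatty acids did not pass the test. Of 15 tested, 0 fell and 0 rose in limma, where 7.63% and 7.28% of all tested genes did, and the median was 0.17. Before adjustment 3 were lower and 2 higher at a p under 0.05. In either direction 4618 of all 13492 tested genes had such a p, so nothing is read from these counts. Plin2, which coats lipid droplets, had levels of 4.44, 3.65 and 4.46 in controls 1 to 3 and 4.66, 5.84 and 5.55 in knockouts 1 to 3, a difference of 1.17 ± 0.37 (limma adjusted p = 0.0770). The fatty acid receptor Cd36 gave -2.10 ± 0.73 (limma adjusted p = 0.0992), with knockout levels of -2.37, -0.16 and 0.38, and Gpam, of the first acylation step, -1.21 ± 0.36 (limma adjusted p = 0.0667).

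Among nuclear receptors and intestinal transcription factors, several of which are known regulators of carboxylesterase genes, 4 of 21 tested fell and 0 rose. Of all tested genes 7.63% fell and 7.28% rose, and the part of these factors in the carboxylesterase values was not tested. Cdx1, a factor of intestinal identity, fell by 1.14 on the log2 scale (limma adjusted p = 0.0376), and Nr3c1, the glucocorticoid receptor, by 0.86 (limma adjusted p = 0.0191). Ahr, the aryl hydrocarbon receptor, was named after its values were seen and fell by 1.04 (limma adjusted p = 0.0443). The list's median was -0.17, with 7 genes lower and 2 higher at an unadjusted p under 0.05, beside 4618 of all 13492 tested genes in either direction. Nr1i2, the pregnane X receptor, and Hnf4a were named after their values were seen. They did not pass, at 0.09 ± 0.34 and 0.42 ± 0.17 (limma adjusted p = 0.871 and 0.139).

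The genes with the most similar pattern over the 6 arrays were sought for the brightest probe of each subfamily, by the root mean square difference of deviations from the control mean. Nearest to Ces1f were Cry2 and Per2, negative-limb genes of the circadian clock, at 0.180 and 0.236, followed by Agmo, which cleaves ether lipids, at 0.273 and Wnt6 at 0.291. Per2 lay at -2.66, -0.89 and -0.64 on knockouts 1 to 3, and Cry2 at -2.62, -0.57 and -1.39, beside -2.49, -0.69 and -1.08 for Ces1f. They were picked for this likeness, which therefore supports nothing further.

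Nearest to Ces2e were Mmaa, of vitamin B12 metabolism, at 0.084, Akr1cl, of the aldo-keto reductases, at 0.095, Ugt2b34, a glucuronosyltransferase, at 0.104 and Wdr92 at 0.106. Nearest to Ces3a were Cyp2e1, a cytochrome P450 of alcohol and drug oxidation, at 0.319, Xpnpep2, a membrane aminopeptidase, at 0.384, Ugt2a3, another glucuronosyltransferase, at 0.405 and Slc28a1, a nucleoside transporter, at 0.430. Knockouts 1 and 2 are background readings for Ces3a, so its likeness to other genes, and to Cyp2e1 in particular, rests partly on array background. Cyp2e1 was at -2.22, -2.51 and -2.05 in controls 1 to 3 and -6.05, -5.65 and -4.39 in knockouts 1 to 3, and like Ces3a it was well above background on 1 of 3 knockout arrays. Ugt2a3 was measured on all arrays, at 4.02, 4.02 and 3.93 in controls and 0.35, 0.52 and 1.29 in knockouts. These genes were picked for likeness, so their differences are descriptions.

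Over the 14 alternatives that kept the groups and could move a member's difference, that of Ces1e ranged from -1.24 to -0.83, of Ces1f from -1.78 to -0.74, of Ces2a from -2.31 to -1.68 and of Ces2e from -1.06 to -0.60. Leaving out arrays, as several of these do, cannot turn the sign of genes whose groups do not overlap. Ces2b was negative in 9 of the 14 and Ces2c in 7. The size of the low genes depended on the background correction: with normexp and its offset of 50, Ces1d was at -2.80, Ces1g at -2.16 and Ces3a at -0.87. Grouped by source name and genotype instead, Ces1d was at -2.13 and Ces2a at -0.69, and 0 genes of the set passed, nor did any of all genes (0 in limma, where 207 had a p under 0.05 before adjustment).

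**Figure D4:**
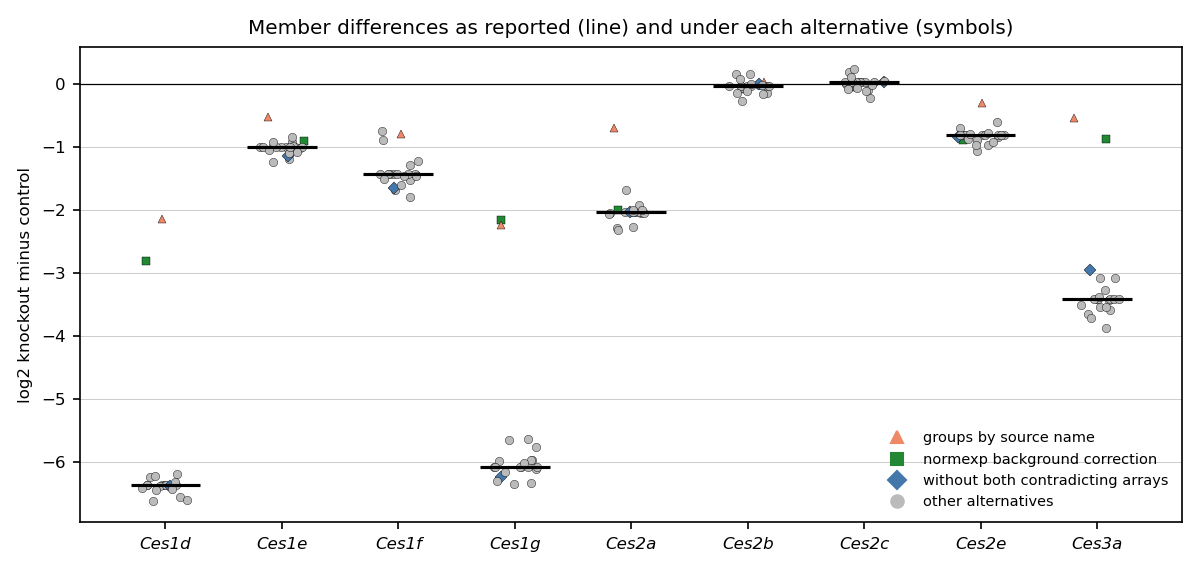
Log2 difference, knockout minus control, of the 9 tested members as reported (black line) and under each alternative (symbols, jittered sideways). Ces2b and Ces2c lie on both sides of 0, and the normexp values of Ces1d (-2.80), Ces1g (-2.16) and Ces3a (-0.87) lie far above their lines.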

How the data were processed

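RNA of 6 crypt samples was labelled with Cy3 and hybridised to 1 one-colour Agilent array each, per the labels. The authors deposited spot intensity from Agilent Feature Extraction. The file headers give its version as 12.0.3.1, whereas the submitters' processing notes name 11.5.1.1. Per the file headers, processed intensity is background-subtracted within an array and not scaled between arrays. A further table that the authors deposited holds log2 values that matched the present levels centred on each probe's median (medians of its columns: 0.196, 0.0606 and -0.322 for controls 1 to 3, -0.0717, 0.214 and -0.183 for knockouts 1 to 3), and served as an alternative. Flags for signal well above background are other values that the authors deposited from the extraction.

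Outlier spots were left out and spots of a probe averaged. Precision is limited by the number of arrays. Gene names came from RefSeq accessions (33767 of 56605, assembly GRCm38.p6). The brightest probe per gene was fitted with limma 3.58.1 (R 4.3.3), group as the only term, Benjamini-Hochberg adjustment, two-sided, and the fit was tested on simulated data. P-values reflect only the spread among these samples, which may be partly technical. Each group holds samples with and without Xist, so its samples were not all from a single animal. How many animals they came from is not stated.

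Members and lists were chosen with earlier results of these data known. Named were the members, Arid1a, other measured Ces genes, the up to 3 genes of smallest p per pathway list described, cluster neighbours and the 4 genes most like the brightest member of each subfamily. Alternatives were the background correction, scaling, filter, probe choice, variance model, array weights, blocks by replicate number or slide, slide 1 alone, labels, thresholds and each array left out. Sex as a block was added after the data were seen. Protein motifs were not analysed here. Some genes that the naming rule covers are not reported here.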

Additional observations from a re-analysis of the deposited data

How the results depend on the processing

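The count of all genes past an adjusted p of 0.05 in limma was 2011. It was 697 without a filter on dim probes, 7097 with array weights, 689 on slide 1 alone, 513 at an adjusted p under 0.01, 1339 with sex as a block (chosen after the data were seen), 320 without both arrays of contradicting labels and 0 with groups by source name and genotype. Leaving out 1 array at a time gave 638 to 4033. Of the set, 5 genes passed. The number was 3 with probes well above background on all arrays, where 6 members were measured, 3 at an adjusted p under 0.01, 2 without both arrays of contradicting labels, 0 with groups by source name and genotype, and 4 to 7 with 1 array left out. The members' median difference, -1.42, was -0.90 with normexp, -0.90 with probes well above background on all arrays, -0.92 with array weights, -0.53 with groups by source name and genotype, and -1.78 to -0.88 with 1 array left out. The cause of these shifts was not tested, except that normexp adds an offset of 50 to every signal and that a stricter filter tests fewer genes. No called member changed sign in any alternative run, but in many runs none could. Leaving out arrays cannot turn the sign of separate groups, and several settings leave a member's difference as it is.

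With slide as a block 2503 of all genes and 6 members passed, Ces2e being the added one, and with the replicate number as a block 2733 and 5. Deviations of same-numbered samples correlated at 0.25, 0.08 and 0.35, and those of differently numbered samples at -0.28 to 0.02. Same-numbered samples were thus the more alike, but the numbers go with slide and partly with sex. Only the samples numbered 3 lay on slide 2. Xist was well above background in both samples numbered 2 and in neither numbered 1. Centring each group on its own mean also lowers the other correlations when same-numbered ones are high. Whether the numbers pair the samples cannot be told from these arrays, with 3 samples per group. The main fit took no pairing. Signal over background limits Ces1d, Ces1g, Ces3a and Ces3b, whose knockout levels were partly or wholly background readings.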

Other observations

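Markers of other cells and states were read on the same arrays, as mean deviations from the control mean. Proliferation genes lay at -0.10, -1.01 and -1.30 on knockouts 1 to 3, with 0 of 7 past the test in limma and 5 lower at an unadjusted p under 0.05. Over all 13492 tested genes 14.9% passed, and 4618 had an unadjusted p under 0.05 in either direction. Of 6 tested crypt base stem cell genes 4 fell, where 7.63% of all tested genes did. Among the 4 was Ascl2, a factor of the intestinal stem cell, which fell by 3.09 on the log2 scale (limma adjusted p = 0.0181).

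T cell genes lay between -0.95 and 0.48 on the control arrays and between -0.13 and 1.11 on the knockout arrays, and 1 of 8 rose, Thy1. Beside this count and those that follow, 7.28% of all tested genes rose and 7.63% fell. Of 5 tested macrophage genes 1 rose and 1 fell, Cd68 rising by 0.87 and Lyz2 falling by 3.43 on the log2 scale. Of 6 tested exocrine pancreas genes 1 fell, Cpa1, which entered the fit through the control arrays alone and had to differ, and the list spanned -0.91 to 0.74 on control arrays and -2.87 to -0.15 on knockout arrays. Of 3 tested endothelial and 2 tested adipocyte genes 0 passed in limma. At an unadjusted p under 0.05 there were 0 and 1, beside 4618 of all 13492 tested genes. Their part in the carboxylesterase values was not tested.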
